A study of Mus musculus with 5 samples.

Results

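The genes described here are 57 homeobox and related developmental regulators that lie outside the Hox clusters, taken as named families (Dlx, Lhx, Pax, Irx, Nkx, Six2 to Six6, Otx, Emx, En, Gsc, Pitx, Prrx, Alx, Msx, Barx and Meis) out of 53843 annotated mouse genes. Their CpG positions were those inside the gene or within 2 kb upstream of it that had at least 10 methylation calls on the allele in each of 5 libraries, and positions within 1 kb of an annotated transcript start were kept apart from the rest. On the castaneus allele 879 positions met this rule (565 near start sites and 314 away from them), of 170286 in the whole series. The domesticus allele had 820 (523 and 297), of 165153. A position was found for 49 of the 57 genes. No position met the rule in Dlx5, Emx1, Irx3, Lhx3, Lhx8, Pax4, Prrx1 and Six5, and Pax3 had positions but too few to be tested, since at least 3 were required per gene. The families are grouped by name. As background, Pax1 and Pax9 have a paired domain but no homeodomain, and Pax2, Pax5 and Pax8 keep only part of one.

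DNA methylation (mC) was read by enhanced reduced representation bisulphite sequencing (eRRBS), which cuts DNA at CCGG sites, so that CpG-rich fragments make up most of the reads. The fibroblasts (MEFs) came from female E13.5 embryos of 129/C57 dams and CAST sires, in which reads are told apart as maternal (domesticus) or paternal (castaneus). The Female control group held 3 libraries of genotype Setdb1+/+ Xist-deltaA/+ with a nonsilencing hairpin, and the Setdb1 depleted group held 2 libraries of genotype Setdb1+/gt Xist-deltaA/+ with a hairpin against Setdb1, a histone H3 lysine 9 methyltransferase. All cells carried the Xist deletion and were transduced with retrovirus and selected with puromycin. Genotype and hairpin differed together, so the parts of the gene trap and the hairpin cannot be told apart. Nothing in the labels says whether replicates came from separate embryos or cultures, and p-values measure the spread between these libraries only. Depletion of the protein cannot be checked from methylation.

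Each library held between 9440874 and 10558931 calls per allele. The imprinted gene Zrsr1, known to be methylated on the maternal copy, was methylated at 93.2 to 96.7% on the domesticus allele and at 0.989 to 4.93% on the castaneus allele over the 5 libraries. Start sites of 5 tested fibroblast marker genes had a median of 12.6% mC in the controls on the castaneus allele, against 59.3% for 2 pluripotency genes and 2.95% for 4 epithelial genes. The fibroblast genes ranged from 0.0992 to 35.5% there, and from 0.104 to 89.9% with a median of 26.3% on the domesticus allele. These start sites therefore did not tell fibroblasts from epithelial cells.

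Homeobox proteins bind DNA through a helix-turn-helix domain and set the identity of body regions, organs and cell types. Outside the Hox clusters they include regulators of the forebrain and face (Dlx, Otx, Six3, Gsc), motor and interneuron types (Lhx, Nkx), eye, kidney, thyroid and B cells (Pax), and limb and facial mesenchyme (Prrx, Alx, Msx, Barx). Many of these genes sit in long CpG-rich regions that are covered by Polycomb proteins in cells where the gene is silent, and such regions are known to be held at low methylation well into the gene body.

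Sequences are given for the stretches on which the results turn, all on the plus strand of mm10 (GRCm38), with the CpGs that were called on at least 1 allele in capitals. A cluster is a run of at least 3 called positions with gaps of at most 100 bp. A CpG gives 2 positions when the cytosines of both strands are read. The 3 clusters with the lowest p-values for Setdb1 depletion on each allele are given first, and show how many CpGs each comparison rests on. Dlx6 was among them on both alleles, which leaves 5 clusters. They lie in an Alx4 intron (chr2:93646941-93646961), a Dlx6 intron (chr6:6864726-6864834), Nkx2-5 coding sequence (chr17:26841094-26841151), the region upstream of Nkx6-1 (chr5:101666888-101667093) and a Pax8 exon (chr2:24474225-24474357).
Alx4: CGcagCGctgaccctaaaaCG
Dlx6: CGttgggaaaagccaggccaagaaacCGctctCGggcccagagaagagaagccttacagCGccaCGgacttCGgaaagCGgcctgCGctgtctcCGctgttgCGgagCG
Nkx2-5: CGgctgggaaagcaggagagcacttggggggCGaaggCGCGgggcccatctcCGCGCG
Nkx6-1: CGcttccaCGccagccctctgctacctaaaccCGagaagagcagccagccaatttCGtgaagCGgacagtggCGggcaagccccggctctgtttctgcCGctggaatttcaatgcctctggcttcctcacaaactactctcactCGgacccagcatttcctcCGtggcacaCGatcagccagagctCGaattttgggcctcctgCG
Pax8: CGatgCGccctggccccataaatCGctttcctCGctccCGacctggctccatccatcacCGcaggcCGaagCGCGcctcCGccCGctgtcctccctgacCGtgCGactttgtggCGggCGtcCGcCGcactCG

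The next set holds clusters of intermediate methylation (20 to 80% in the controls) from the most methylated genes. They are shown so that the CpGs behind each level, 2 to 5 in each stretch, can be seen. They lie in Otx1 exons (chr11:22000559-22000582 and chr11:22000884-22000935), upstream of Otx1 (chr11:22004680-22004697) and of Gsc (chr12:104474936-104474996), and in introns of Nkx3-2 (chr5:41762779-41762814), Pax1 (chr2:147367567-147367602), Pax2 (chr19:44818919-44818978) and Prrx2 (chr2:30875177-30875285).
Otx1 exon at 22000559: CGgCGcagacactctgagcccaCG
Otx1 exon at 22000884: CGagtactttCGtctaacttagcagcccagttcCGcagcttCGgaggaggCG
Otx1 upstream: CGCGactcctaggctgCG
Gsc upstream: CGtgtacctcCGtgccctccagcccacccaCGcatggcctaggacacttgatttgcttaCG
Nkx3-2 intron: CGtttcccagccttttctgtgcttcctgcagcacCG
Pax1 intron: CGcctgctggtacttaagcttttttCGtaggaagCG
Pax2 intron: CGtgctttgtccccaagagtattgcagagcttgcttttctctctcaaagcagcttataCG
Prrx2 intron: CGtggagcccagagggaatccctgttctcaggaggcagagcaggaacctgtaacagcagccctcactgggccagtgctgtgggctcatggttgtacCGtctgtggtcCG

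A last set of 3 marks contrasts within or between alleles. It holds an unmethylated Otx1 intron (chr11:22001997-22002065), a highly methylated Prrx2 coding stretch (chr2:30879552-30879616) and an Msx1 exon whose alleles differed (chr5:37823410-37823450). The Otx1 intron has 11 CpGs in 69 bp, and the Prrx2 stretch has 4 in 65 bp.
Otx1 intron: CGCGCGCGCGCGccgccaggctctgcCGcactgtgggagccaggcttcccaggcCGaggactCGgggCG
Prrx2 coding: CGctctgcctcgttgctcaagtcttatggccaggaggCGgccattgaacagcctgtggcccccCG
Msx1 exon: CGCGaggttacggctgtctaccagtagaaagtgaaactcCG

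Near start sites the regulators had low methylation in the Female control cells, as most genes did. The median over the 40 genes tested on the castaneus allele was 2.09% mC, against 0.425% over 10587 genes, and on the domesticus allele it was 1.77% over 35 genes, against 0.458% over 10137. Under 5% mC were 27 of 40 regulators on the castaneus allele (67.5%, against 72.8% of all genes) and 25 of 35 on the domesticus allele (71.4%, against 72.7%). The mean over all positions near start sites had the opposite order to the gene medians. It was 4.77 ± 0.566% for the regulators against 8.55 ± 0.0999% for all genes on the castaneus allele. Domesticus means were 5.68 ± 1.14% and 8.56 ± 0.0789% (SD over 3 controls in each case). Whether the regulators were higher or lower near start sites thus depended on the measure.

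The Irx genes, which pattern the neural tube, heart and limb, were among the lowest, with family medians of 0.360% (4 genes, castaneus) and 0.665% (5 genes, domesticus). Irx2 held 0.428, 0.00 and 0.150% in the controls and 0.212 and 0.134% after depletion on the castaneus allele. Six4, a muscle regulator, had 0.191 ± 0.107% (SD, n = 3) on the castaneus allele and was listed at 0% in all 5 libraries on the domesticus allele. The shallowest library there had 364 calls, which allows up to 0.824% if each call is taken as independent. Irx4, a ventricular regulator, was at 0% in all 3 controls on the domesticus allele, but with as few as 58 calls, which allows 5.17% counted in the same way. Calls on a read are not independent, so both limits are too low.

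A few regulators departed from this floor. Prrx2, a regulator of limb and facial mesenchyme, had 90.4, 85.6 and 86.4% mC in the controls and 81.9 and 87.2% after depletion on the castaneus allele. These 5 positions lie in coding sequence, in the Prrx2 stretch printed above. They are 265 bp from an internal transcript start, but 44612 bp past the gene's first start and 1667 bp before its end. No read across them was fully unmethylated in any library. The Nkx2-5 and Pax1 clusters described below likewise lie near internal starts, 3887 and 5659 bp past the first start of each gene. Dlx6, a regulator of the jaw and limb, was the next highest. Pax1 (sclerotome and thymus) stood at 15.9 ± 1.19% (SD, n = 3) on the castaneus allele. On the domesticus allele the highest were Dlx6 (48.0 ± 15.6%), Pax8 (24.0 ± 12.6%), Nkx2-5 (19.96 ± 1.79%), the cardiac regulator, and Gsc (10.1 ± 6.54%), an organiser and craniofacial gene (SD, n = 3 each). Dlx6 was above the other 3 genes in each control library. The control values of Nkx2-5 and Gsc did not overlap, while those of Pax8 (12.5 to 37.5%) overlapped both, so the place of Pax8 among them is not resolved. The Gsc cluster printed above held 9.14 to 47.2% per position in the controls on the domesticus allele. It lies 478 bp from a start of the transcript Gm10000, but 1636 bp from that of Gsc. At the 15 positions shared by both alleles Gsc averaged 3.76% on the domesticus allele over the 5 libraries.

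**Figure D1:**
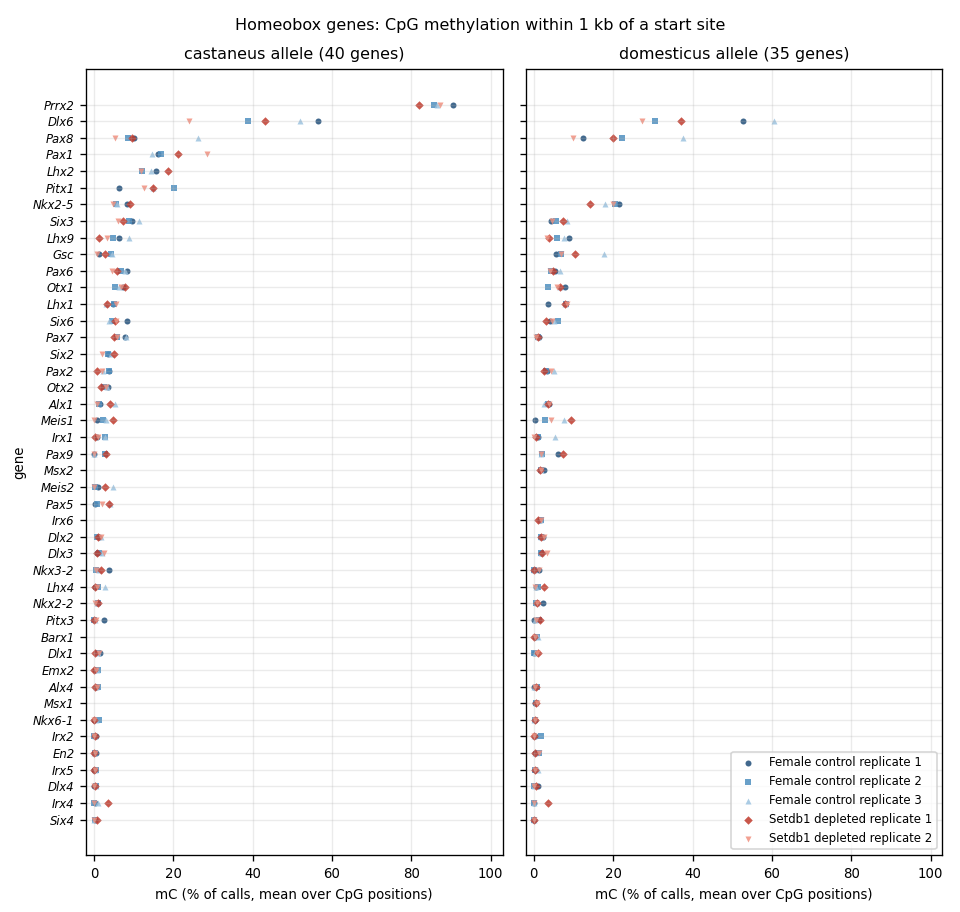
Methylation near start sites of each tested regulator (rows) on the castaneus (left, 40 genes) and domesticus (right, 35 genes) alleles, where each point is 1 library and the x axis is the mean % mC over CpG positions. Most points sit under 5%, and Prrx2 on the castaneus allele and Dlx6 on both stand apart.

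Away from start sites the regulators differed from the rest of the genome. Their median control level was 13.4% mC over 30 genes on the castaneus allele, against 76.9% over 4823 genes, and 16.9% over 28 genes on the domesticus allele, against 77.4% over 4591. None exceeded 80%, which 43.8% and 45.1% of all genes did, and under 5% lay 6 of 30 (20%, against 6.53% of all genes) and 9 of 28 (32.1%, against 5.88%). These are levels without a test, since genes are not replicates of a condition.

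Pax genes were the most methylated family away from start sites, with a median of 36.7% over 5 genes (castaneus) and 46.0% over 4 (domesticus). Pax5, the B cell regulator, had 71.0, 72.1 and 74.4% mC in the controls and 73.8 and 64.2% after depletion on the castaneus allele. Its domesticus values were 60.8, 66.3 and 58.2%, then 60.5 and 68.2%. Pax2, of kidney and midbrain, followed at 65.7 ± 1.88% and 60.9 ± 4.26% (SD, n = 3). Pax5 and Pax2 differed by less than their control SDs on the domesticus allele. Lhx6 (interneurons) had 42.6 ± 7.01% and Pax9 (pharyngeal pouches and teeth) 36.7 ± 3.27% on the castaneus allele. Otx1, a forebrain regulator, had 51.9 ± 6.40% and Nkx3-2 (Bapx1, axial skeleton) 32.6 ± 2.99% on the domesticus allele, each with n = 3.

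At the other end, several regulators stayed near 0% away from start sites. Pitx3, of lens and dopaminergic neurons, had 0.866, 0.117 and 0.487% in the controls and 0.522 and 0.493% after depletion on the castaneus allele. Dlx3, of skin and placenta, had a control mean of 0.532 ± 0.470% there. En1, of the midbrain and ventral limb, and Msx1, of limb and craniofacial mesenchyme, were the lowest on the domesticus allele, at 0.493 ± 0.522% and 0.811 ± 0.710% (SD, n = 3).

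**Figure D2:**
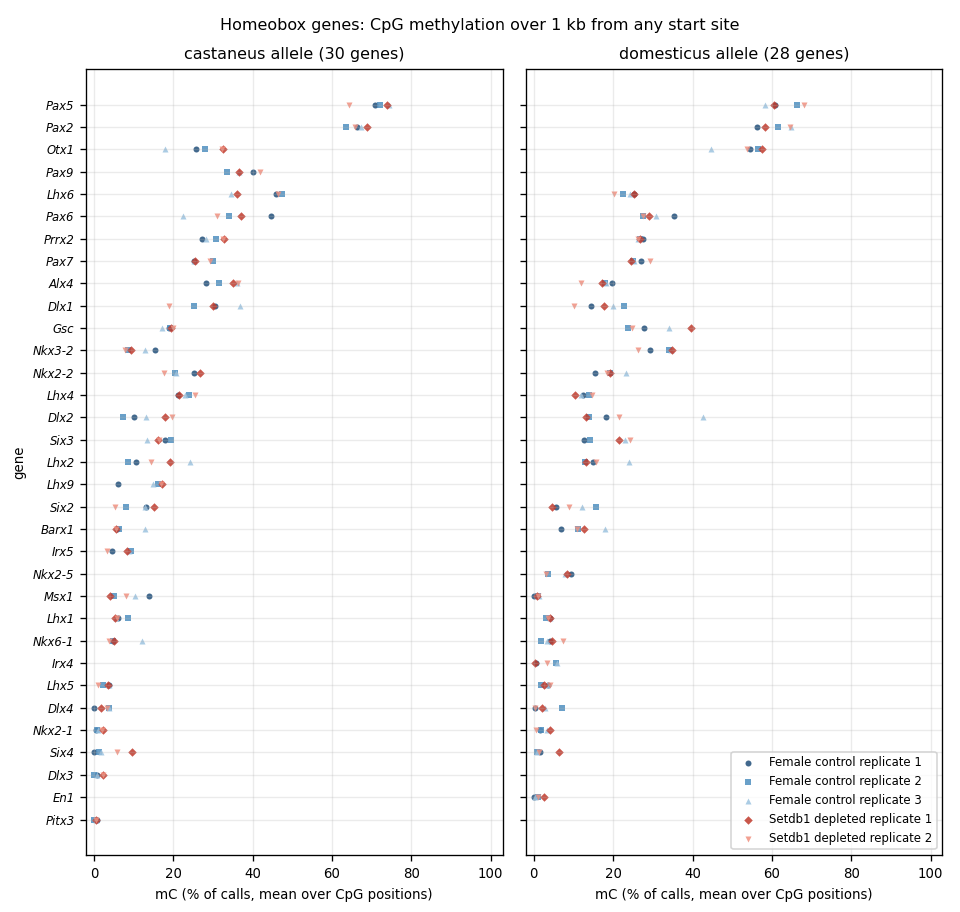
Methylation away from start sites of each tested regulator (rows) on the castaneus (left, 30 genes) and domesticus (right, 28 genes) alleles, where each point is 1 library and the x axis is the mean % mC over CpG positions. The genes spread from Pitx3 near 0% to Pax5 and Pax2 above 55%, and none passes 80%.

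The low level reached far from the start site. Positions 500 to 1000 bp from a start averaged 4.83 ± 0.969% mC in the controls for the regulators on the castaneus allele, against 22.2 ± 0.199% over all genes. At 1000 to 2000 bp the values were 12.0 ± 0.957% and 45.2 ± 0.272%. At 2000 to 5000 bp they were 16.03 ± 1.80% (126 positions) and 65.1 ± 0.371% (9303 positions). Past 5000 bp the regulators reached 43.7 ± 0.937% against 70.3 ± 0.566%. The domesticus allele gave the same order, with 16.8 ± 2.63% against 65.3 ± 0.433% at 2000 to 5000 bp (SD over 3 controls in each case). The gap to all genes was therefore many times the spread between libraries at every distance over 500 bp. That spread does not measure the one between genes or positions. Past 5000 bp the regulators had only 45 positions (castaneus) and 70 (domesticus).

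CpG density differed along with distance. The median number of CpGs within 250 bp of a position away from start sites was 27.5 (castaneus) and 25 (domesticus) for the regulators and 13 for all genes. Density classes were taken over all positions, near and away from start sites together, so their mix of distances may differ between the sets. In the classes under 30 CpGs the regulators were lower. With 0 to 9 CpGs they held 55.9 ± 0.840% (25 positions) against 74.1 ± 0.527% on the castaneus allele. With 10 to 19 CpGs they held 35.1 ± 0.528% against 68.3 ± 0.585% on the castaneus allele, and with 20 to 29 CpGs 9.18 ± 0.619% against 26.7 ± 0.168%. With 30 to 39 CpGs the values were 4.88 ± 0.456% and 5.59 ± 0.0539%, and on the domesticus allele the regulators were the higher there, at 8.28 ± 1.45% against 5.69 ± 0.0694%. With 40 to 59 CpGs they were at 2.07 ± 0.811% against 1.87 ± 0.0691% (castaneus) and 2.31 ± 0.803% against 1.72 ± 0.0283% (domesticus). The part of Polycomb occupancy in these levels was not tested.

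**Figure D3:**
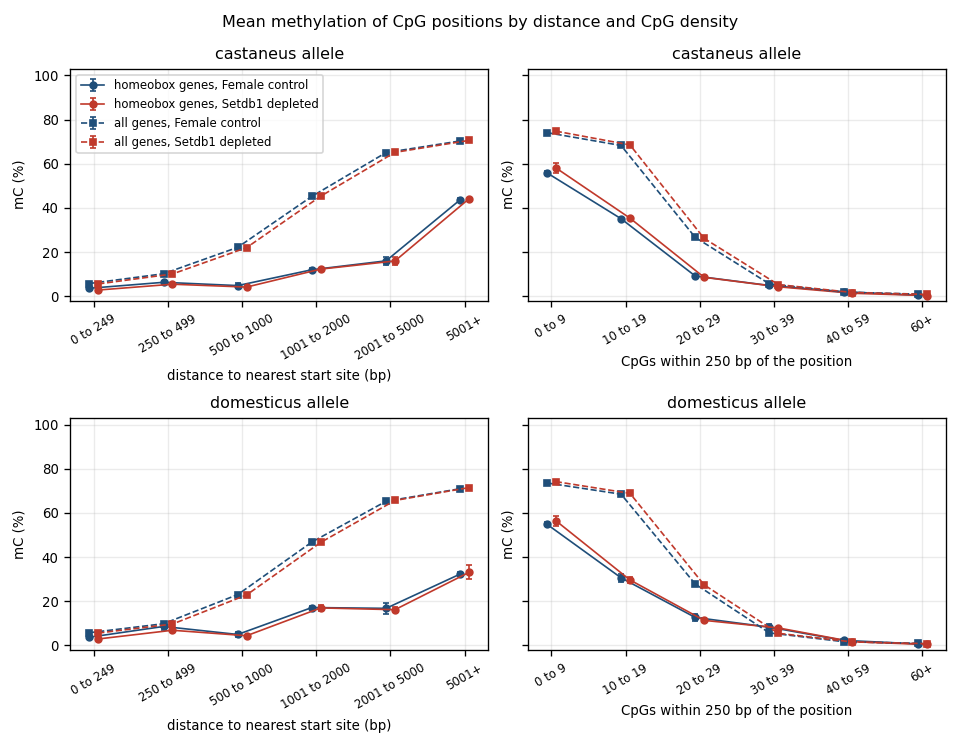
Mean % mC of CpG positions (y axis) by distance to the nearest transcript start in bp and by number of CpGs within 250 bp, for the regulators and for all genes on each allele, with error bars of 1 SD over the 3 Female control or 2 Setdb1 depleted libraries. The regulators lie below all genes in each distance class, with the wider gaps from 500 bp outward, and the lines of both groups lie close together.

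The same was seen in homeobox genes that are not among the 57. Over a list of other homeobox genes the control median away from start sites was 5.16% (27 genes tested) and over Hox genes 7.72% (8 genes) on the castaneus allele, with 7.28% (26) and 10.5% (6) on the domesticus allele. Low gene-body methylation was thus not particular to the 57 regulators, whose medians were the higher ones. Regulators with a known role in limb, face or axial mesenchyme had a median of 12.3% away from start sites on the castaneus allele (10 genes) and those of brain and other organs 16.8% (17 genes). Near start sites the medians of these lists were 3.00% (14 genes) and 1.69% (19 genes).

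Single genes held both methylated and unmethylated stretches. Of 122 clusters in 42 regulators on the castaneus allele, 80 had under 5% mC in the controls, 25 had 5 to 20%, 15 had 20 to 80% and 2 had more. Of 102 clusters in 42 regulators on the domesticus allele the numbers were 67, 16, 18 and 1. The widest ranges within a gene were Prrx2 on the castaneus allele (2.08 to 87.5%), Pax7, a muscle stem cell gene, on the domesticus allele (0.391 to 86.0%), and Lhx4, of pituitary and motor neurons, on the castaneus allele (0.00 to 80.1%).

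Otx1 showed this contrast in full. Its intron stretch printed last above, 320 bp from a start, gave 0% in all 5 libraries on the castaneus allele over 10 positions. The shallowest library had 208 calls, for which the limit is 1.44% if each call is taken as independent. Calls on a read share it, so that limit is too low. By contrast, the exon cluster at chr11:22000559-22000582 had 52.7, 52.8 and 36.9% in the controls and 65.1 and 60.6% after depletion. The domesticus values of that exon were 60.6, 64.1 and 51.6%, then 66.3 and 66.9%. The depleted libraries lay above the controls on both alleles here, by 15.4 and 7.86 points, with adjusted p = 0.965 and 1 in the quasi-binomial model. Most reads across the exon carried both methylated and unmethylated CpGs, 53.1 to 73.8% of them over the libraries and alleles. In pooled cells a share of methylated cells and partly methylated copies can be told apart only within a read. The upstream Otx1 cluster, 1791 bp from a start, was also intermediate, at 63.2 ± 10.2% in the controls on the domesticus allele.

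No regulator changed with Setdb1 depletion at an adjusted p under 0.05. Methylated and unmethylated calls were summed per gene and library and compared between 3 Female control and 2 Setdb1 depleted libraries in a quasi-binomial model fitted over all genes, with Benjamini-Hochberg adjustment. Near start sites 0 of 40 (castaneus) and 0 of 35 (domesticus) passed, where 0.0378% and 0.0296% of all genes did. In the remaining positions 0 of 30 and 0 of 28 passed, where 0.187% and 0.0436% of all genes did. Of the clusters 0 of 122 and 0 of 102 passed, against 0.0414% and 0.0475% of all clusters. A limma test on transformed levels called 0 features of any kind in these 6 families, so its 0 says nothing of the regulators.

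At an unadjusted p under 0.05 the counts near start sites were 2 of 40 (all genes 3.09%) and 5 of 35 (3.48%). For positions farther away they were 6 of 30 (6.63%) and 2 of 28 (5.69%), and in clusters 15 of 122 (4.21%) and 6 of 102 (4.16%). Groups that did not overlap, meaning that both depleted libraries lay above or below all 3 controls, were counted as well. Near start sites this held for 6 of 40 regulators (16% of all genes) on the castaneus allele, 5 of them lower (8.13% of all genes), and for 5 of 35 (15.9%) on the domesticus allele. Farther away it held for 9 of 30 (21.6%) on the castaneus allele, 8 of them higher (11.5%), and for 2 of 28 (20.4%) on the domesticus allele. With 3 and 2 libraries an exact permutation test of any single value cannot go below p = 0.1.

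The changes of the regulators were summarised by the median of the differences per gene. The median difference (depleted minus control) near start sites was -0.246 points on the castaneus allele, with 28 regulators lower and 12 higher (70% lower), against -0.000119 over all genes, of which 50.04% were lower. It ran from -0.599 to -0.227 when 1 library was left out. The median level of each library differed there by -0.214 points with overlapping groups, by 0.163 without Female control 3 and by 0.354 without Setdb1 depleted 2. Among other homeobox genes 13 were lower and 26 higher on that allele, and 23 and 14 on the domesticus allele. The median difference of the regulators on the domesticus allele was -0.105 points (19 lower, 15 higher, 54.3% lower), against -0.00674 and 50.8% lower. Farther away it was 0.302 points on the castaneus allele (43.3% lower), against 0.159 over all genes (47.2% lower), and -0.171 on the domesticus allele (57.1% lower), against 0.218 (46.6% lower). Neither sign was stable away from start sites, where leaving out 1 library gave -0.130 to 0.849 on the castaneus allele and -0.847 to 0.376 on the domesticus allele. The median level of each library gave another picture there. On the castaneus allele it was 14.6, 12.7 and 14.1% in the controls and 17.5 and 16.7% after depletion, 3.29 points apart (2.75 to 3.72 without a library) with groups that did not overlap, where the median over all genes differed by 0.469 points. On the domesticus allele it was 13.4, 13.99 and 18.97%, then 13.2 and 13.3%, a difference of -2.21 points, against 0.373 over all genes. That difference was -0.451 points without Female control 3, and the groups were only 0.0915 points apart. An exact permutation test of either cannot reach 0.05, as stated above. The mean over all regulator positions away from start sites did not show these shifts. On the castaneus allele that mean was 17.95, 17.8 and 18.7% in the controls, then 18.97 and 17.7%, a difference of 0.186 points against 0.190 over all genes. On the domesticus allele the difference in means was -0.101 points, against 0.355. The groups overlapped on both alleles.

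Most differences of single genes depended on 1 library. Of the 32 depletion differences that were the largest each way per set, 26 changed sign or shrank by over 1.5 times when some library was left out, 6 of them changing sign. The 5 that moved by less in both directions were those of Lhx9 near start sites on both alleles, Six3 near start sites on the castaneus allele, and Dlx2 and Six4 away from start sites on the castaneus allele.

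Dlx6 had the largest difference near start sites on both alleles. The positions lie in an intron of Dlx6, 370 bp on the domesticus allele and 395 bp on the castaneus allele from the start of the overlapping transcript Dlx6os2, and 982 and 957 bp from the nearest start of Dlx6 itself. On the castaneus allele it had 56.5, 38.8 and 52.0% in the controls and 43.2 and 24.1% after depletion, a difference of -15.5 points. Domesticus values were 52.8, 30.6 and 60.6%, then 37.1 and 27.2%, a difference of -15.9 points.

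Female control 2 lay between the depleted libraries on both alleles, so the groups overlapped, and the adjusted p of the gene was 1 on each. Every position of the cluster was lower on average in the depleted cells, 4 of 4 on the castaneus allele and 13 of 13 on the domesticus allele, but positions on a read share it and are not replicates. Without Female control 2 the domesticus difference was -24.6 points with adjusted p = 1.17e-06 in the quasi-binomial model, and without any other library it did not pass. The calls over all genes rose from 3 to 34 in that same setting. Over the libraries left out the difference ran from -24.6 to -9.55 points on the domesticus allele, the smallest without Female control 3, and from -25.02 to -5.93 on the castaneus allele, the smallest without Setdb1 depleted 2. Fully methylated reads of this Dlx6 cluster made up 21.5, 9.94 and 26.0% of the domesticus reads in the controls and 7.74 and 5.70% after depletion. Fully unmethylated reads made up 16.1, 46.6 and 11.0%, then 31.6 and 37.8%, with Female control 2 above both depleted libraries.

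Pax8, of thyroid and kidney, differed in the same direction. Its 19 positions lie in an exon 806 bp from a Pax8 start. On the castaneus allele it had 10.1, 8.55 and 26.3% in the controls and 9.60 and 5.33% after depletion. The domesticus values were 12.5, 22.1 and 37.5%, then 19.9 and 9.89%. Female control 3 was the highest on both alleles and the other controls overlapped the depleted libraries. The differences of -7.52 and -9.14 points (adjusted p = 1 for the gene on both) became -1.88 and -2.41 points without Female control 3.

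**Figure D4:**
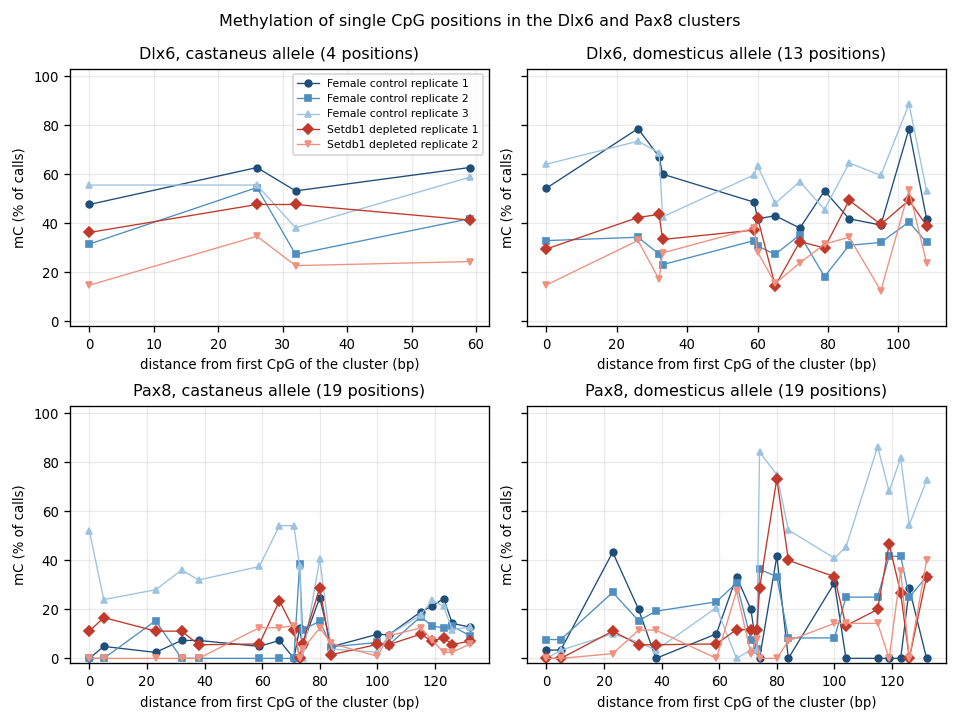
% mC at each CpG position (y axis) against distance in bp from the first CpG of the Dlx6 (top) and Pax8 (bottom) clusters on each allele, where each line is 1 library. In Dlx6 on the domesticus allele Female control 1 and Female control 3 run above the other 3 libraries at most positions, and in Pax8 Female control 3 stands apart over parts of the cluster.

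Lhx9, of gonad and limb, was lower in both depleted libraries than in every control near start sites on both alleles. It had 6.39, 4.83 and 8.84% in the controls and 1.41 and 3.37% after depletion on the castaneus allele, and 8.89, 5.93 and 7.63%, then 3.86 and 3.32% on the domesticus allele. The differences were -4.30 and -3.89 points, with adjusted p = 1 on both. Away from start sites the castaneus allele of Lhx9 differed by 4.74 points the other way, from 6.12, 16.04 and 14.9% to 17.2 and 17.0%, over 3 positions and 65 to 97 calls per library.

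Six3 (forebrain and eye), Pax2, Pax6 (eye and brain) and Pax7 also had groups that did not overlap near start sites on the castaneus allele, all lower in the depleted cells, by -3.29, -1.93, -2.44 and -1.87 points. The Six3 difference turned to 0.573 points with at least 40 calls per position and with the gene's own start sites only. Irx1 was lower by this measure on the domesticus allele (-2.17 points), while Dlx1, Dlx3 and Msx1 were higher (0.815, 0.9497 and 0.285 points). At the 10 Irx1 positions shared by both alleles the domesticus values were 0.345, 0.588 and 8.03% in the controls, then 0.571 and 0.149%. Female control 3 stood apart at these positions, and the groups overlapped. Pax6 held the cluster with the largest difference on the castaneus allele, named here after its values were seen, in the untranslated region at chr2:105674160-105674205. It had 59.1, 48.7 and 51.9% in the controls and 37.1 and 29.7% after depletion, and on the domesticus allele 40.5, 37.1 and 52.6%, then 33.6 and 30.2%. The differences were -19.9 and -11.5 points with adjusted p = 1 on both alleles, and neither allele's groups overlapped.

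Pax1 had the largest difference upward near start sites. It had 16.03, 17.0 and 14.6% in the controls and 21.3 and 28.6% after depletion on the castaneus allele, a difference of 9.06 points (adjusted p = 1). The difference lay in the intron cluster printed above, 698 bp from a start, with 28.5, 28.6 and 26.3%, then 37.8 and 49.8%. All 5 of its positions were higher, by 16.1 points on average, with adjusted p = 0.941 in the quasi-binomial model over all clusters. The coding cluster at chr2:147362339-147362390 of the same gene differed by 0.300 points. On the domesticus allele only 2 positions of the intron cluster had enough calls, and 1 of them was higher.

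Smaller differences upward near start sites were 1.35 points for Irx4, 1.22 for Pax5 and 1.19 for Lhx2 (forebrain and limb) on the castaneus allele. Domesticus differences were 3.37 for Meis1, a cofactor of Hox proteins, 1.79 for Irx4, 1.52 for Lhx1 (kidney and head organiser) and 1.22 for Pax9, while Nkx2-5 differed by -2.92 points. The groups overlapped in all of these. The castaneus differences of Irx4 and Lhx2 and the domesticus one of Pax9 turned below 0 without Setdb1 depleted 1. Without that library the domesticus differences were also 0.00 for Irx4, 0.887 for Meis1 and -0.0330 for Nkx2-5, and that of Lhx1 was 0.0344 without Female control 1.

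Away from start sites 8 of 30 regulators (11.5% of all genes) were higher in both depleted libraries than in every control on the castaneus allele. They were Dlx2, Dlx3, Gsc, Lhx9, Nkx2-1, Otx1, Prrx2 and Six4, and Barx1, of stomach and tooth mesenchyme, was lower. Otx1 had 25.8, 28.003 and 17.97% in the controls and 32.5 and 32.3% after depletion, a difference of 8.49 points (adjusted p = 0.631). Dlx2, a forebrain regulator paired with Dlx1, had 10.2, 7.21 and 13.2%, then 17.9 and 19.6%, a difference of 8.55 points (adjusted p = 0.700). Six4 had 0.00, 1.39 and 1.67%, then 9.51 and 5.77%, a difference of 6.62 points (adjusted p = 0.677) that rests on 22 methylated calls in all.

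On the domesticus allele Dlx3 and Lhx9 had too few positions to be tested, and the groups of the other 6 overlapped. Dlx2 had 18.2, 13.8 and 42.7% in the controls and 13.2 and 21.4% after depletion there, a difference of -7.63 points that was 1.27 points without Female control 3. Otx1 differed by 3.80 points (-0.105 with over 20 calls per position) and Six4 by 2.76, with overlapping groups. Tests of whether the depletion effect differed between alleles called 0% of all genes near or away from start sites, and 0 regulators.

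Dlx1 had lower values after depletion on both alleles away from start sites, with 30.6, 25.1 and 36.7% in the controls and 29.9 and 19.0% after depletion on the castaneus allele and 14.3, 22.7 and 19.9%, then 17.7 and 10.1% on the domesticus allele. The groups overlapped on both, and the differences were -6.37 points (adjusted p = 0.631) and -5.04 points. Without Setdb1 depleted 2 they were -0.8997 and -1.22 points, and without Setdb1 depleted 1 -11.8 and -8.86. Other differences downward on the castaneus allele were -3.81 for Msx1, -3.71 for Nkx3-2 and -3.49 for Pax5, the last turning to 1.30 without Setdb1 depleted 2.

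On the domesticus allele Nkx6-1, of motor neurons and beta cells, had 4.17, 1.86 and 3.35% in the controls and 4.68 and 7.26% after depletion, a difference of 2.85 points (adjusted p = 0.627). Alx4, of craniofacial and limb mesenchyme, had 19.6, 17.9 and 18.1%, then 17.2 and 11.9%, a difference of -3.98 points (adjusted p = 0.702). Neither pair of groups overlapped. Six2 (kidney progenitors) differed by -4.38 points, with overlap. Six3 differed by 6.31 points and Gsc by 3.57, but Six3 was at -9.33 with over 20 calls per position and Gsc at -3.85 without Setdb1 depleted 1, so neither had a settled direction.

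The clusters of Nkx6-1 and Alx4 did not differ alike on the alleles. The cluster upstream of Nkx6-1, about 2 kb from its start, had 6.05, 4.32 and 4.19% in the controls and 7.03 and 13.2% after depletion on the domesticus allele (adjusted p = 0.753), where the difference of 5.28 points became 2.18 without Setdb1 depleted 2, but 6.28, 5.96 and 15.4%, then 7.15 and 5.64% on the castaneus allele, where the difference of -2.82 points became 0.280 without Female control 3. The Alx4 intron cluster, 4562 bp from a start, had 13.2, 20.8 and 22.0%, then 32.3 and 42.3% on the castaneus allele (adjusted p = 0.718), but 36.8, 18.1 and 23.9%, then 21.4 and 15.8% on the domesticus allele, where the difference of -7.64 points became -2.36 without Female control 1. Fully methylated castaneus reads in the Alx4 cluster made up 0.00, 2.78 and 0.00% in the controls and 15.9 and 11.5% after depletion, of 36 to 63 reads each.

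At an unadjusted p under 0.05 the depletion effect differed between alleles for 0 of 28 regulators near start sites (1.85% of all genes) and 4 of 21 away from them (4.26%). These were Alx4, Nkx6-1, Pax5 and Six3, each with adjusted p = 1 in the quasi-binomial model. The castaneus minus domesticus difference was larger in the depleted cells by 10.6 points for Alx4, and it was lower by this measure in Nkx6-1, Pax5 and Six3 (-7.52, -19.8 and -21.1 points). The Six3 value rests on 3 shared positions with 58 to 128 domesticus calls per library. Its domesticus change had no settled direction, as stated above. For Nkx6-1 the castaneus values were 4.54, 4.54 and 14.7% in the controls, then 4.01 and 5.06%, so Female control 3 stood apart.

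Some regulators differed between the alleles. The alleles were compared at the same positions within each of the 5 libraries, with the library as a block in the quasi-binomial model. Here castaneus means the paternal and CAST-derived copy and domesticus the maternal and 129/C57-derived one, so that parent and strain cannot be told apart. Near start sites 2 of 28 regulators differed (4.48% of all genes) and away from them 5 of 21 (11.1%). Mean control levels, each allele over its own positions rather than the shared ones, followed each other across genes. The Pearson correlation was 0.931 and the Spearman correlation 0.839 over 31 regulators near start sites, and 0.835 and 0.799 over 25 away from them. These describe genes measured in the same libraries.

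Nkx2-5 near start sites was lower on the castaneus allele in 5 of 5 libraries. On the domesticus allele the 10 shared positions had 21.4, 15.4 and 19.6% in the controls and 13.9 and 11.0% after depletion, and on the castaneus allele 8.41, 5.67 and 5.74%, then 9.13 and 4.93%. The difference was -9.49 ± 4.04 points (SD, n = 5; adjusted p = 0.000348), and the levels of the alleles did not overlap. Most of these positions lie in the coding cluster printed above. Pax8 was also lower on the castaneus allele in 5 of 5 libraries, by -8.42 ± 4.73 points (adjusted p = 0.0469). Its call was lost without any one of Female control 2, Female control 3, Setdb1 depleted 1 and Setdb1 depleted 2 (adjusted p = 0.233, 0.337, 0.181 and 0.0728).

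Away from start sites Msx1, Dlx1 and Alx4 were higher on the castaneus allele in 5 of 5 libraries. The 3 positions of Msx1 lie in the exon stretch printed above, 1153 bp from its start. They had 13.96, 5.11 and 10.3% in the controls and 3.99 and 7.97% after depletion on the castaneus allele, and 0.00, 1.11 and 1.32%, then 0.758 and 0.952% on the domesticus allele. The difference was 7.43 ± 4.32 points (SD, n = 5; adjusted p = 0.00073), and the lowest castaneus value was above the highest domesticus value.

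Dlx1 had 26.3, 30.1 and 51.5% in the controls and 38.3 and 26.0% after depletion on the castaneus allele, and 14.3, 22.7 and 19.9%, then 17.7 and 10.1% on the domesticus allele. The difference was 17.5 ± 9.27 points (adjusted p = 0.00351) over 4 positions. Alx4 had 30.7, 34.4 and 40.3%, then 39.0 and 40.9% on the castaneus allele, and 25.2, 22.5 and 29.6%, then 25.3 and 14.6% on the domesticus allele. Its difference was 13.6 ± 7.69 points (adjusted p = 0.012). Without Female control 3, Setdb1 depleted 1 or Setdb1 depleted 2 the adjusted p of Alx4 was 0.0565, 0.0629 or 0.0595.

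Pax6 and Lhx6 also passed but were not of 1 direction. Pax6 was higher on the castaneus allele in 4 of 5 libraries (3.86 ± 7.20 points, adjusted p = 0.00128) and Lhx6 was lower in 3 of 5 (-8.98 ± 10.3 points, adjusted p = 0.00511). The model sums calls over positions, so deeper positions weigh more. An alternative added after the data were seen weighted each position equally. It also replaced the model by a limma test on arcsine-transformed differences between the alleles. In that test adjusted p was 0.556 for Pax6 and 0.252 for Lhx6, and only Msx1 (0.0352) and Dlx1 (0.0270) passed. For Nkx2-5, Alx4 and Pax8 it was then 0.0585, 0.0544 and 0.126. Weights and test changed together, so their parts in these values cannot be told apart. A further 6 regulators had 1 sign in 5 of 5 libraries but did not pass, 3 of 28 near start sites (5.29% of all genes) and 3 of 21 away from them (11.7%). Of these Barx1, Otx1, Dlx3 and Six6, an eye regulator, were lower on the castaneus allele and Prrx2 and Pax7 higher. Otx1 away from start sites and Six6 near start sites differed by -7.55 ± 4.08 and -3.65 ± 1.98 points (adjusted p = 0.402 and 0.381), Barx1 away by -4.55 ± 2.25 (0.122), Prrx2 away by 4.03 ± 3.26 (0.890), Dlx3 near by -1.41 ± 0.771 (0.620) and Pax7 near by 1.37 ± 1.54 (0.375). The Six6 cluster on the domesticus allele lies at a start of the gene 4930447C04Rik, 1915 bp from that of Six6.

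**Figure D5:**
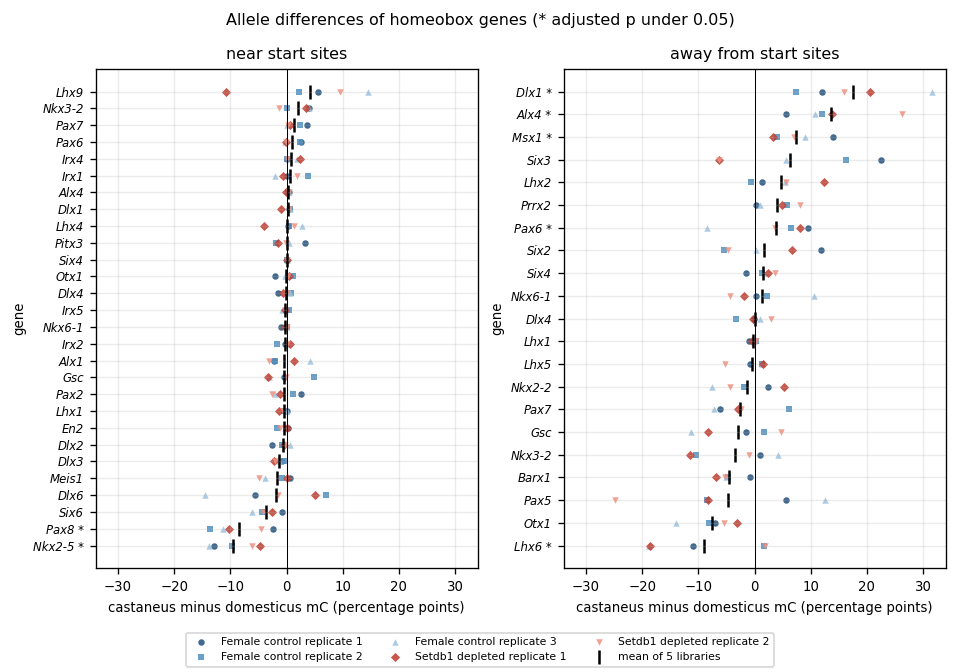
Difference in % mC between the alleles (castaneus minus domesticus, percentage points) at shared positions of each regulator (rows), near start sites (left, 28 genes) and away from them (right, 21 genes), where coloured points are the 5 libraries, black ticks their mean and asterisks mark an adjusted p under 0.05. All 5 points lie below 0 for Nkx2-5 and Pax8 and above 0 for Dlx1, Alx4 and Msx1.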

How the data were processed

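The deposited values were Bismark methylation calls (extractor version 0.13.0 per the file headers), with 1 line per read and CpG, which the authors split by allele. Per the submitters' processing notes and the study's methods, reads were made with CASAVA 1.4, trimmed with Trim Galore and aligned by Bismark to an mm10 genome masked at strain differences. Read ends were left out by the authors on methylation bias, and C/T differences were not used to split reads. The deposited counts of calls are not normalised and hold positions of any depth, while the study analysed positions of over 20 reads. Removal of PCR duplicates is not given in the sources used here, so intervals and limits cover counting error only and take each call as independent. Calls marked by the sequencer's filter (5.34 to 5.66%) were kept. % mC was the methylated share of calls per position, averaged over positions.

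Gene positions came from GENCODE M21. Genes needed 3 positions of at least 10 calls per library. Summed calls were compared in a quasi-binomial logistic model whose dispersion, kept at 1 or more, was moderated in R 4.3.3 with limma 3.58.1, tested on simulated data, with Benjamini-Hochberg adjustment at 0.05 over all genes or clusters. The study's t-test of single CpGs was not used here. Clusters were runs of at least 3 positions with gaps up to 100 bp.

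Genes named were those past the threshold, the 4 largest differences each way per test, the 4 highest and 2 lowest levels, and the 3 clusters of lowest p per allele, plus those whose groups did not overlap. Members and lists were chosen with earlier results of these data known. Replicates shared 1.15 to 1.31% of positions with equal counts and were not copies.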

Additional observations from a re-analysis of the deposited data

How the results depend on the processing

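The alternatives were coverage over 20 or at least 40, at least 5 positions, filter-marked calls left out, strands merged, own start sites only, pooling, limma, Fisher's exact test on pooled calls, a replicate block and leaving out each library. Where a value moved, the cause was not tested. Fisher's test, which takes libraries as one pool, called 5, 7, 11 and 7 regulators for depletion (near castaneus, near domesticus, away castaneus, away domesticus) and 24 and 16 clusters, where it called 10.7, 10.1, 20.8 and 19.5% of all genes and 10.4 and 10.2% of all clusters. Leaving out each library gave 0 calls, except 1 near start sites and 1 cluster on the domesticus allele without Female control 2 (Dlx6; ranges 0 to 1), where calls over all genes rose from 3 to 34 (0.335%) and over all clusters from 9 to 24 (0.127%). Allele calls near start sites were 1 (at least 5 positions), 0 (coverage at least 40), 1 (over 20), 0 (equal position weights, with a limma test on arcsine-transformed levels), 0 (limma on summed calls), 5 (strands merged) and 1 to 2 without a library. The first 6 of these settings called 4.31, 3.71, 3.75, 2.48, 2.16 and 7.92% of all genes, against 4.48%. Away from start sites the allele calls were 2, 1, 1, 2 and 2 for the first 5 of these settings (13.01, 12.3, 11.7, 6.82 and 4.22% of all genes, against 11.1%) and 4 to 5 without a library.

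The replicate numbers are shared by 2 libraries of each group and were not taken as pairs in the main tests. Same-numbered deviations from the group means had correlations from -0.0798 to 0.0370 over all genes. Counting error lowers such correlations, so they cannot exclude a shared litter or batch. The replicate block called 0 regulators, against 0, 0.187, 0.415 and 0.196% of all genes and 0.0155 and 0.258% of all clusters, and turned Dlx2 away from start sites, domesticus, to 1.27. The median difference near start sites on the domesticus allele was -0.232 (coverage at least 40), -0.0218 (strands merged), 0.0629 (own start sites), 0 (pooled), 0 (replicate block) and -0.205 to 0 without a library. The other 3 medians moved by less than the spread between replicates, but without a library that near start sites on the castaneus allele ran from -0.599 to -0.227 and those away from start sites from -0.130 to 0.849 (castaneus) and -0.847 to 0.376 (domesticus). Genes whose difference turned were Six3 near castaneus (0.573 with coverage at least 40 and with own start sites), Irx4 near castaneus (-0.193 with coverage over 20, -0.432 to 3.12 without a library), Six3 away domesticus (-9.33 with either coverage), Otx1 away domesticus (-0.105 with coverage over 20) and Gsc away domesticus (-0.894 without filter-marked calls, -2.04 with strands merged, -3.85 to 11.0 without a library). Without a library Lhx2 near castaneus ran from -2.19 to 4.56, Pax9 near domesticus from -1.53 to 3.96, Pax5 away castaneus from -8.28 to 1.30 and Dlx2 away domesticus from -13.2 to 1.27. Of the remaining values 418 kept their direction and side of the threshold, and 16 passed only with Fisher's test or, for Dlx6, without Female control 2.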
